A study of Arabidopsis thaliana with 6 samples.

Results

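The 14 genes described here encode basic leucine zipper (bZIP) transcription factors of *Arabidopsis thaliana*. They were chosen by name: the gene symbol is bZIP followed by a number, and the probe table ties a probe set to that gene alone. They are 14 of 13356 genes with a probe set of their own, and each of the 14 has 1 probe set. The gene table holds 30 genes with such a symbol, and the other 16 were not analysed here. Transcript levels were measured on arrays in inflorescence stems of 35S::CLE41 plants and wild-type (WT) plants, with 3 samples per genotype and 1 array per sample. All plants were ecotype Columbia, 5 weeks old, and grown with 16 h of light and 8 h of dark. Tissue was the lower part of the stem, without the 1 cm next to the rosette. *CLE41* encodes the secreted peptide TDIF, which phloem cells normally make and which the receptor kinase PXY perceives in the cambium, the dividing layer between phloem and xylem. The 35S promoter, of viral origin, is active in most tissues, so the transgene is not limited to the phloem.

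A bZIP protein holds a basic region that contacts DNA and a leucine zipper through which it pairs with a second bZIP protein. Plant bZIP dimers mostly bind sites built around an ACGT core, and the choice of partner shapes which genes a dimer acts on. The plant family is divided into lettered groups by sequence, and the 14 genes fall into groups E, I, S, F, B and K. Members are known for responses to sugar and energy supply, zinc shortage, salt, mechanical or osmotic stress and unfolded protein in the endoplasmic reticulum (ER). Several are controlled after transcription, by translation, RNA splicing, protein cleavage or movement into the nucleus, and an array reads transcript level only.

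The median intensity was 97.4 to 101 on the 35S::CLE41 arrays and 91.9 to 96.3 on the WT arrays, an offset that follows genotype. WT replicate 2 stood apart: it differed at least 2-fold from its group mates at 365 probe sets, while this number was 32 to 100 on each of the other 5 arrays, so each bZIP difference is also given without it. *CLE41* itself averaged 11.46 ± 0.24 in 35S::CLE41 stems and 9.69 ± 0.28 in WT stems on the log2 scale (SD, n = 3 each), a difference of 1.77 (SE 0.18; limma adjusted p = 0.0013). The tissue label could be checked against few markers, since none of the 8 listed xylem genes had a named probe set. The cambium receptor kinase gene *MOL1*, 1 of 4 listed, had a mean of 8.63 in 35S::CLE41 stems and 8.12 in WT stems. The root hair gene *EXPA7* had means of 4.72 in 35S::CLE41 stems and 4.74 in WT stems, below the 5.67 under which the dimmest 40% of probe sets lie. The labels do not say whether the samples of a genotype came from separate plants, so the p-values cover only the variation among these samples, part or all of which may be technical.

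Of the 14 bZIP genes, 5 differed between the genotypes at an adjusted p of 0.05 in limma, adjusted over all 22746 probe sets. *BZIP61* and *bZIP52* were lower in 35S::CLE41 stems, and *bZIP58*, *bZIP43* and *bZIP19* were higher. The background was 14.8% of all probe sets called, 7.93% higher and 6.86% lower, against 35.7% of the 14 genes. That balance depended on scaling: 1803 probe sets were higher and 1561 lower as deposited, against 1392 higher and 1975 lower with all arrays shifted to 1 median. At an unadjusted p of 0.05, 9 of 14 genes passed, 6 higher and 3 lower, where 29.3% of all probe sets did (16.6% higher and 12.7% lower). The 35S::CLE41 arrays lay entirely above or below the WT arrays for 9 of 14 genes as well, with a background of 34.5%. The median absolute difference was 0.37 on the log2 scale over the 14 genes and 0.15 over all genes with 1 probe set each. With so few genes these shares describe only the 14 genes, not the bZIP family, and were not tested.

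The direction of the differences was uneven, with 11 of 14 above 0 against 50.4% of all probe sets, and 1 of the 11, *bZIP48*, turned below 0 with all arrays shifted to 1 median. The median difference was 0.25 over the 14 genes and 0.0020 over all probe sets. WT replicate 2 was the lowest WT array for 9 of the 14 and the highest for 4. Without it 11 of the 14 differences were smaller in size, no sign changed, and 4 of 14 genes were called where 12.6% of all probe sets were. The call of *bZIP19* was the 1 lost. *BZIP61* and *bZIP52* were called in each of the 6 fits that left out 1 array, as were 5.98% of all probe sets. The 3 rises were not: none of them was called without 35S::CLE41 replicate 2 or without WT replicate 3.

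**Figure D1:**
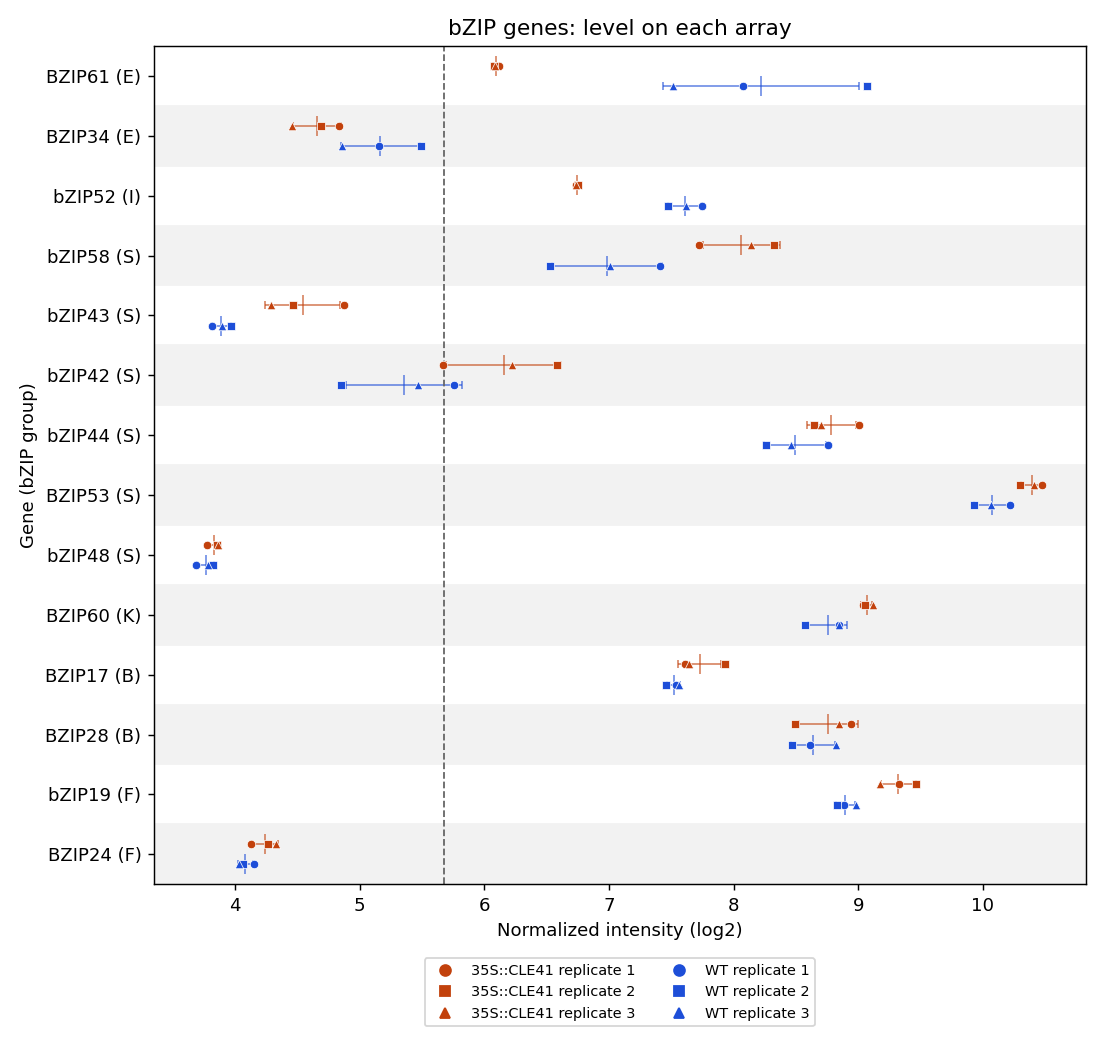
Normalized log2 intensity (horizontal axis) of the 14 bZIP genes on each array, with the bZIP group in brackets. Points are arrays, with shape giving the replicate number; 35S::CLE41 lies above WT in each row, vertical ticks are means, bars are SD (n = 3), and the dashed line at 5.67 bounds the dimmest 40% of probe sets. The 35S::CLE41 arrays of *BZIP61* lie between 6.07 and 6.12, below WT arrays that spread from 7.51 to 9.07; levels of different genes are not comparable, since each probe set has its own response.

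Group E holds *BZIP61* (AT3G58120) and *BZIP34* (AT2G42380), close relatives whose proteins are known to pair with other bZIP proteins rather than with themselves. *BZIP61* had log2 intensities of 6.12, 6.07 and 6.09 on the 35S::CLE41 arrays, against 8.08, 9.07 and 7.51 on the WT arrays. All 35S::CLE41 arrays lay well below all WT arrays, and they were also far closer together, with an SD of 0.024 in 35S::CLE41 and 0.79 in WT. The difference was -2.12 (SE 0.34; 95% interval -2.90 to -1.35; limma adjusted p = 0.00676), a level 4.36-fold lower in 35S::CLE41 stems. By size this was the 28th fall among 13356 genes, and the 53rd without WT replicate 2. The high WT array was WT replicate 2, which lay 1.27 above the mean of the other WT arrays. Without it the fall was -1.70 (SE 0.16; adjusted p = 0.00089), or 3.25-fold, and over the 6 fits without 1 array it ran from -2.48 to -1.70.

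*BZIP34*, known from work on pollen wall formation and pollen germination, had 4.83, 4.68 and 4.46 on the 35S::CLE41 arrays, against 5.15, 5.49 and 4.86 on the WT arrays. The genotypes did not overlap, but the lowest WT array lay only just above the highest 35S::CLE41 array. Its difference of -0.51 (SE 0.18; 95% interval -0.91 to -0.10) did not pass the threshold (limma adjusted p = 0.0959). The probe set is among the dimmest 40%, so its size is uncertain. WT replicate 2 was the highest WT array here too, and without it the difference was -0.35. Without WT replicate 3, the lowest WT array, it was -0.66 and was called (adjusted p = 0.0448). Both group E genes were thus lowest in 35S::CLE41 stems and highest in WT replicate 2, with *BZIP61* alone called on all arrays; whether the pair differ in response was not tested.

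Group I was represented by *bZIP52* (AT1G06850), a relative of *VIP1*; proteins of this group move into the nucleus after mechanical or hypo-osmotic stimulation. It had 6.73, 6.75 and 6.74 on the 35S::CLE41 arrays, against 7.75, 7.47 and 7.61 on the WT arrays. The 35S::CLE41 arrays were almost level, and the lowest WT array stood clear of them. *bZIP52* fell by 0.87 (SE 0.10; 95% interval -1.11 to -0.63), or 1.83-fold, with the smallest limma adjusted p of the 14 genes (0.00219). WT replicate 2, the highest WT array for *BZIP61*, was the lowest for *bZIP52*. Without that array the difference was -0.94 (adjusted p = 0.00149), and no single array left out brought it above -0.80.

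Group S, the largest of the plant family, encodes small bZIP proteins and supplied 6 of the 14 genes. The 6 differences were all above 0 as deposited, from 0.067 for *bZIP48* to 1.08 for *bZIP58*, with *bZIP48* at -0.012 when all arrays were shifted to 1 median. *bZIP58* and *bZIP43* rose, and *bZIP42*, *BZIP53*, *bZIP44* and *bZIP48* did not pass. None fell.

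*bZIP58* (AT1G13600) had 7.72, 8.32 and 8.14 on the 35S::CLE41 arrays, against 7.41, 6.53 and 7.01 on the WT arrays. The genotypes did not overlap, although the lowest 35S::CLE41 array and the highest WT array, both numbered replicate 1, lay close. It rose by 1.08 (SE 0.24; 95% interval 0.53 to 1.63; limma adjusted p = 0.0222), or 2.11-fold. Without WT replicate 2, its lowest WT array, the rise was 0.85, or 1.81-fold, and was still called (adjusted p = 0.0275). The call was lost without 35S::CLE41 replicate 2 (adjusted p = 0.0857), 35S::CLE41 replicate 3 (adjusted p = 0.0738) or WT replicate 3 (adjusted p = 0.0536).

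*bZIP43* (AT5G38800) had 4.87, 4.46 and 4.29 on the 35S::CLE41 arrays, against 3.81, 3.96 and 3.89 on the WT arrays. Each 35S::CLE41 array was higher than each WT array, all on a dim probe set for which the size of a difference is uncertain. It rose by 0.65 (SE 0.15; limma adjusted p = 0.0281), or 1.57-fold, and by 0.69 without WT replicate 2 (adjusted p = 0.0366). Leaving out 35S::CLE41 replicate 1, the highest array, gave 0.49 and ended the call (adjusted p = 0.058), as did leaving out 35S::CLE41 replicate 2 or WT replicates 1 or 3 (adjusted p up to 0.0814).

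*bZIP42* (AT3G30530) had 5.67, 6.58 and 6.22 on the 35S::CLE41 arrays, against 5.76, 4.85 and 5.47 on the WT arrays. The genotypes overlapped, since 35S::CLE41 replicate 1 lay below WT replicate 1. Its difference of 0.80 (SE 0.28) was larger than that of *bZIP43*, but so was the spread between arrays, and it was not called (limma adjusted p = 0.103). Leaving out WT replicate 2, by far its lowest WT array, brought it to 0.54. As for *bZIP58*, replicate 1 was the lowest 35S::CLE41 array and the highest WT array, and replicate 2 the reverse.

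*BZIP53* (AT3G62420) and *bZIP44* (AT1G75390) belong to the part of group S whose translation sucrose represses and whose proteins pair with group C bZIP proteins in the low-energy response; BZIP53 is also known for activating seed maturation genes. *BZIP53* had 10.47, 10.30 and 10.41 on the 35S::CLE41 arrays, against 10.22, 9.93 and 10.07 on the WT arrays. These did not overlap, and the difference of 0.32 (SE 0.11; 95% interval 0.068 to 0.58) missed the threshold over all probe sets (limma adjusted p = 0.0932). *bZIP44* had 9.01, 8.64 and 8.70 on the 35S::CLE41 arrays, against 8.76, 8.26 and 8.46 on the WT arrays. Here the highest WT array exceeded 2 of the 3 35S::CLE41 arrays, and the difference was 0.29 (SE 0.16; 95% interval -0.072 to 0.66; limma adjusted p = 0.272). Without WT replicate 2 the differences of *BZIP53* and *bZIP44* were 0.25 and 0.17. *bZIP48* (AT2G04038) lay between 3.69 and 3.86 on all 6 arrays, where 6.45% of probe sets were dimmer. Its difference was 0.067 (SE 0.092), and 0.094 without WT replicate 2.

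Group F holds the zinc regulators. *bZIP19* (AT4G35040), which with its close relative *bZIP23* activates zinc uptake genes when zinc is short, had 9.33, 9.46 and 9.18 on the 35S::CLE41 arrays, against 8.88, 8.83 and 8.98 on the WT arrays. The genotypes did not overlap. It rose by 0.43 (SE 0.11; 95% interval 0.17 to 0.68; limma adjusted p = 0.0371), or 1.34-fold, the smallest of the 5 called differences. The call was kept in 1 of 6 fits that left out an array, that without 35S::CLE41 replicate 3; the others gave adjusted p up to 0.109, with differences from 0.36 to 0.47. Without WT replicate 2 it was 0.39 (adjusted p = 0.0773). It was also lost with all arrays shifted to 1 median (difference 0.35, adjusted p = 0.0711) and when eBayes was run with a trend and robust (adjusted p = 0.0505). *BZIP24* (AT3G51960), known as a regulator of the salt response, had 4.13, 4.27 and 4.33 on the 35S::CLE41 arrays, against 4.15, 4.06 and 4.03 on the WT arrays. These overlapped on a dim probe set, with a difference of 0.16 (SE 0.099; limma adjusted p = 0.344), or 0.15 without WT replicate 2. The 1 measured gene of 10 listed for the zinc deficiency response, the transporter gene *ZIP9*, differed by -0.098 (SE 0.15; limma adjusted p = 0.745) on all arrays and by 0.074 without WT replicate 2, also on a dim probe set.

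**Figure D2:**
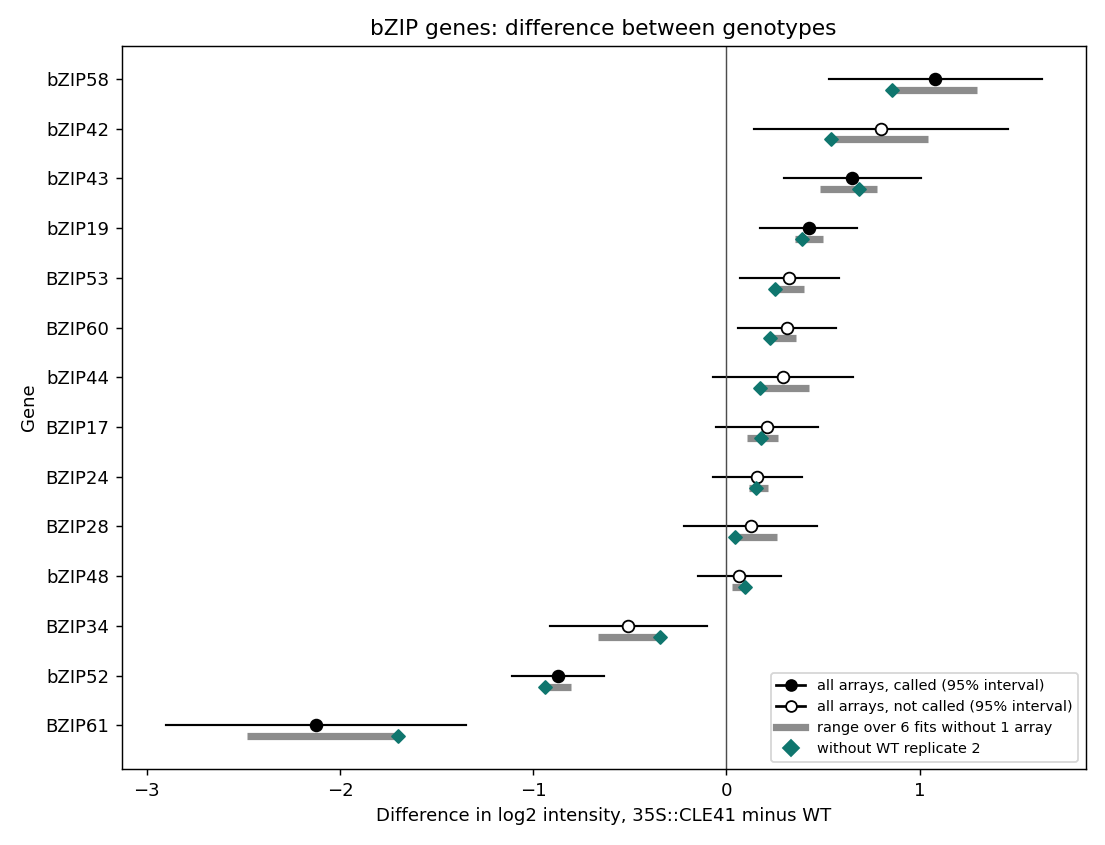
Difference in log2 intensity, 35S::CLE41 minus WT (horizontal axis), for the 14 bZIP genes; circles with 95% intervals come from all arrays and are filled where called. Grey bars span the 6 fits that left out 1 array, and diamonds mark the fit without WT replicate 2. *BZIP61* and *bZIP52* stay far below 0 in each fit, and for 11 of 14 genes the diamond lies nearer to 0 than the circle.

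The remaining 3 genes encode the bZIP factors of the unfolded protein response. BZIP60 (group K) is made from an RNA that the ER sensor IRE1 splices, while BZIP17 and BZIP28 (group B) sit in the ER membrane and are released by the proteases S1P and S2P. *BZIP60* (AT1G42990) had 9.03, 9.05 and 9.12 on the 35S::CLE41 arrays, against 8.85, 8.57 and 8.85 on the WT arrays. Each 35S::CLE41 array lay above each WT array, but the difference of 0.31 (SE 0.11; 95% interval 0.061 to 0.57) was not called (limma adjusted p = 0.0979) and was 0.22 without WT replicate 2. *BZIP17* (AT2G40950) had 7.61, 7.93 and 7.64 on the 35S::CLE41 arrays, against 7.54, 7.46 and 7.56 on the WT arrays. The genotypes did not overlap by a narrow margin, and 35S::CLE41 replicate 2 alone stood clearly above WT. Its difference was 0.21 (SE 0.11; 95% interval -0.056 to 0.47; limma adjusted p = 0.28). *BZIP28* (AT3G10800) had 8.94, 8.49 and 8.85 on the 35S::CLE41 arrays, against 8.61, 8.47 and 8.82 on the WT arrays. These overlapped, with a difference of 0.12 (SE 0.15; 95% interval -0.22 to 0.47; limma adjusted p = 0.661). Without WT replicate 2 *BZIP17* differed by 0.18 and *BZIP28* by 0.042. Of 17 other genes listed for this response 2 were measured and neither passed. The chaperone partner gene *ATERDJ3B* differed by 0.24 (SE 0.12; limma adjusted p = 0.259), and *S1P* by 0.097 (SE 0.14; limma adjusted p = 0.715).

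**Figure D3:**
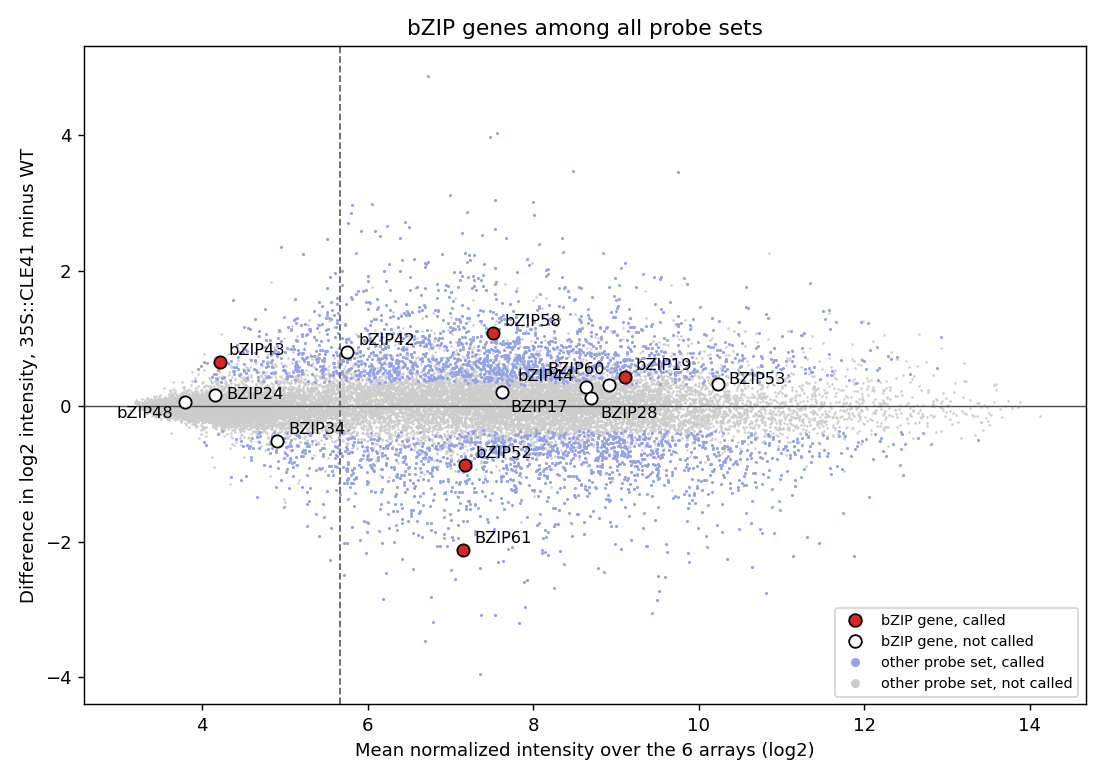
Mean log2 intensity over the 6 arrays (horizontal axis) against the difference in log2 intensity, 35S::CLE41 minus WT (vertical axis), for 22746 probe sets. The 14 bZIP genes are labelled circles, filled where called; small points are the other probe sets, blue where called, and the dashed line at 5.67 bounds the dimmest 40%. *BZIP61* lies deep among the falls at -2.12, and the 9 uncalled bZIP genes lie between -0.51 and 0.80.

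A further 10 of 36 listed bZIP genes known under another symbol had a probe set of their own, and none of them was called. Of the 10, 4 came from the initial list, and 6, all of group I, were added after values or annotation were seen. The 36 include these 6, so coverage of the initial list was lower. With the 14 numbered genes this made 5 of 24 bZIP genes called, or 20.8%. That was nearer to the 14.8% of all probe sets than the share of the 14 genes alone, but depends on the added genes. The median difference of the 10 was 0.088, and 6 of them were on dim probe sets. *FD*, which encodes the partner of the flowering signal FT at the shoot tip, differed by 0.71 (SE 0.21; limma adjusted p = 0.0584). *FD* had means of 5.40 in 35S::CLE41 stems and 4.68 in WT stems on a dim probe set, so the size of its difference is uncertain. It was called without WT replicate 2, where the difference was 0.82 (adjusted p just under 0.05). The genes next by p were AT2G21230 (*bZIP30*, group I) at 0.18 (SE 0.10; limma adjusted p = 0.286) and AT2G40620 (*bZIP18*, group I) at -0.27 (SE 0.18; limma adjusted p = 0.366). Group I, to which the fallen gene *bZIP52* belongs, made up 7 of these 10, and their differences ran from -0.27 to 0.18. No measured group I gene other than *bZIP52* was called, but AT2G12900, AT2G13150 and AT2G40620 were on dim probe sets. Whether *bZIP52* differs from the other group I genes was not tested. *HYH*, the close homologue of the light regulator *HY5*, differed by -0.14 (SE 0.11; limma adjusted p = 0.445), and *EEL*, known from abscisic acid signalling in seeds, by 0.15 (SE 0.10; limma adjusted p = 0.42). Without WT replicate 2 AT2G21230 differed by 0.16, AT2G40620 by -0.15, *HYH* by -0.13 and *EEL* by 0.11, none of them called.

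Other genes tied to bZIP function were thinly covered. None of the 14 genes listed for the low-energy response, in which BZIP53 and bZIP44 act, had a named probe set. Of 12 genes listed as partners of TGA-type bZIP proteins or as salicylate response genes 3 were measured, all glutaredoxin genes on dim probe sets, and none was called. *ROXY1*, whose protein acts with TGA factors in petal and anther development, differed by -0.33 (SE 0.14; limma adjusted p = 0.174), and *GRX480*, whose protein binds TGA factors and is induced by salicylate, by 0.08 (SE 0.19; limma adjusted p = 0.844).

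The genes whose levels followed *BZIP61* most closely were found by the root mean square distance between the 6 array values of each gene, taken relative to its own mean, over 13356 genes with 1 probe set each. AT1G12080 was nearest, at a distance of 0.13 on the log2 scale, with 6.11, 5.89 and 5.87 on the 35S::CLE41 arrays, against 7.62, 8.82 and 7.26 on the WT arrays. Next came *ARPN*, which encodes a plantacyanin, at 0.22. AT4G14695 lay at 0.23, AT5G07030 at 0.23 and AT1G70270 at 0.25. Like *BZIP61*, all 5 had their highest value in WT replicate 2, 0.77 to 1.62 above the mean of the other WT arrays, and their differences ran from -2.27 to -1.95. The likeness thus rests on both the genotype difference and that array, which all genes share, so it is given as a description.

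**Figure D4:**
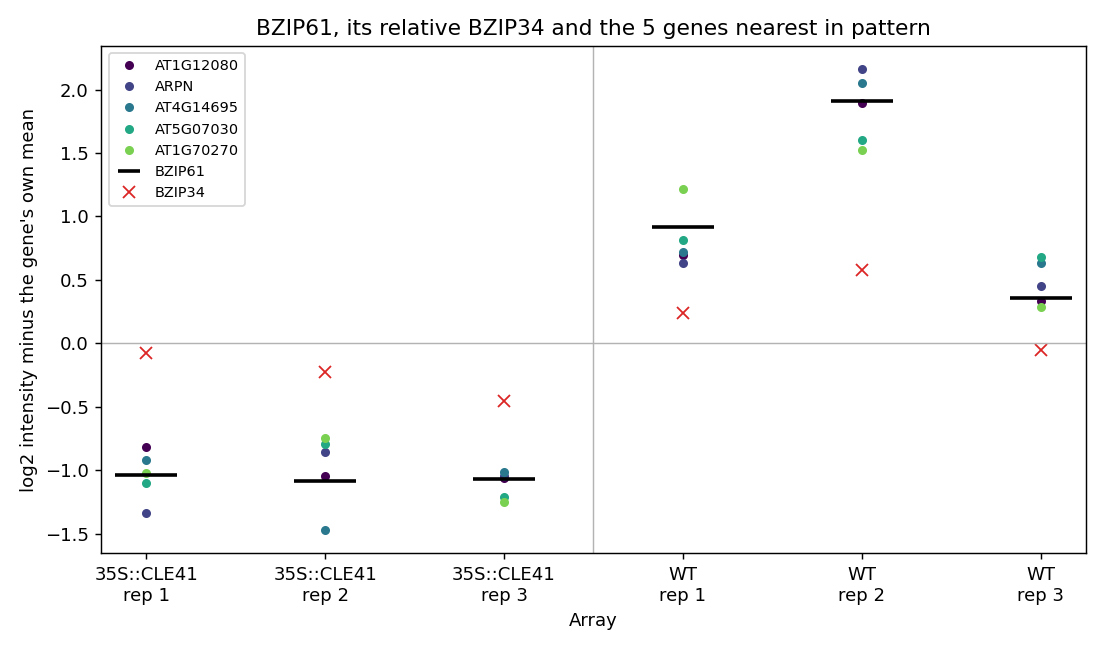
Log2 intensity minus the gene's own mean over the 6 arrays (vertical axis) on each array (horizontal axis), for *BZIP61* (black bars), *BZIP34* (crosses) and the 5 genes nearest to *BZIP61* in pattern (points). The points follow the bars on all arrays, with the peak in WT replicate 2, while *BZIP34* has the same WT order over a smaller range.

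Whole stem pieces were measured, so fewer cells of a type and less RNA per cell cannot be told apart. Of the 8 measured markers of tissues outside the vasculature 2, *WSD1* and *SBPASE*, fell and the other 6 were not called. Over all probe sets 6.86% were called lower and 7.93% higher. The epidermal gene *WSD1*, 1 measured of 6 listed and needed for wax ester synthesis, had means of 6.00 in 35S::CLE41 stems and 9.08 in WT stems. Of the 2 measured green tissue genes *SBPASE* fell by 0.66 (SE 0.11; limma adjusted p = 0.009) and *PRK* differed by -0.34 (SE 0.13; limma adjusted p = 0.125). All 4 genes listed for stomatal development were measured and none was called, with differences from -1.06 for *STOMAGEN* to -0.071 for *SPCH*. *STOMAGEN*, *MUTE* and *SPCH* were on dim probe sets, so the size of their differences is uncertain. Without WT replicate 2 *STOMAGEN* was called (difference -0.66, limma adjusted p = 0.00902). The part of these tissues in the bZIP differences was not tested. The 2 measured phloem genes, *SWEET11* and *OPS*, differed by 0.22 and 0.41 and were not called on all arrays (without WT replicate 2 *SWEET11* was at 0.067, adjusted p = 0.883, and *OPS* at 0.71, adjusted p = 0.0422). The cambium gene *MOL1* rose by 0.51 (SE 0.12; limma adjusted p = 0.0267) and was called in 2 of the 6 fits without 1 array (adjusted p up to 0.0904).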

How the data were processed

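Per the labels' protocols, Trizol was used for RNA and the targets were biotin-labelled in 2 cycles. The authors deposited 1 normalized intensity per probe set and array on a linear scale; the submitters' processing notes name RMA and limma without version or order. The log2 of each deposited intensity was used, whose precision the number of arrays limits. With no detection calls here, probe sets in the lowest 40% by mean were termed dim. Of 22746 probe sets 13513 mapped to 1 gene in the platform annotation, with symbols updated through a RefSeq table (TAIR10.1); a gene with several was read from the one with the highest mean.

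Genotypes were compared across all probe sets by limma 3.58.1 in R 4.3.3 (two-sided moderated test, Benjamini-Hochberg adjustment, tested on simulated data). An exact permutation test of 3 against 3 arrays has p = 0.1 as its minimum and was left out. The members and lists were chosen with earlier results of these data known. All members are named, and from each list the called genes, up to 4, or the 2 with the smallest p. *HYH* and *EEL*, both on the initial list, and AT2G40620 are named beyond that rule, after values were seen. The markers were added after values or annotation were seen. So were 6 bZIP genes under another symbol, AT2G40620 among them, found by a bZIP synonym. The marker *FDH* was dropped, since its symbol matched formate dehydrogenase. bZIP groups are textbook assignments. Alternatives were the replicate block, other scalings, filters, variance settings, array weights, thresholds and leaving out each array. Figures were drawn with matplotlib 3.10.9.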

Additional observations from a re-analysis of the deposited data

How the results depend on the processing

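Over the 14 bZIP genes, the alternatives gave 192 values, of which 174 had the same sign and the same verdict at the threshold as reported. A call was lost in 16, gained in 1 (*BZIP34* without WT replicate 3) and the sign turned in 1 (*bZIP48*, -0.012 with all arrays shifted to 1 median). The 16 losses all concerned *bZIP58*, *bZIP43* and *bZIP19*. The count of bZIP genes called, 5 of 14, ran from 2 to 4 without single arrays. At an adjusted p of 0.01 it was 2, where 1125 of 22746 probe sets were called. At 0.1 it was 8, where 4978 of 22746 probe sets were called. The count of probe sets called, 3364 of 22746 (14.8%), ran from 1699 without 35S::CLE41 replicate 2 to 2872 (12.6%) without WT replicate 2. It was 1607 where only the 13513 probe sets mapped to 1 gene were tested. With the replicate block 3 of 14 bZIP genes and 2897 of 22746 probe sets were called. The bZIP calls lost there were those of *bZIP58* (limma adjusted p = 0.0531) and *bZIP19* (adjusted p = 0.0796). Same-numbered samples did not deviate together from their genotype means (correlations -0.01, 0.08 and -0.092), and the labels do not say that the numbers pair samples. With the dimmest 40% left out, *bZIP43*, *BZIP34*, *BZIP24* and *bZIP48* had no value. Each gene had 1 probe set, so averaging probe sets changed no bZIP difference. *CLE41* was called in all alternatives, at 1.63 to 1.91 without single arrays.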
